A study of Mus musculus with 8 samples.

Results

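The genes described here are 10 genes of the germline, Dppa3, Dppa2, Dppa4, Prdm1, Dazl, Ddx4, Mael, Stra8, Sycp1 and Sycp3, followed through 4 RNA-seq libraries. They were chosen by name from the 32567 genes of the RNA-seq count table, with their values in these libraries already known, so their levels and ratios are given as a description, and no p-value is given for them. RNA was sequenced from a wild-type mouse embryonic stem cell (ESC) line and from a huntingtin-null line homozygous for the targeted Hdh ex4/5 allele of Htt, the mouse orthologue of the Huntington's disease gene. Both lines were sequenced as ESC, which were kept in medium with leukemia inhibitory factor, and as RA-DIFF cells, which were obtained from embryoid bodies treated with retinoic acid after 4 passages without feeder cells. Each of the 4 conditions is 1 library, so the lines, the culture and the genotype cannot be told apart and the intervals below, exact binomial at the 95% level, cover counting error only. The comparisons ask how the loss of Htt altered expression at the pluripotent and at the differentiated stage, and how far expression was altered by differentiation itself.

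In mammals the germline is set aside from cells of the early embryo by signals that switch on Prdm1, and the first germ cells keep or regain genes of the pluripotent state, Dppa3 among them. Later, RNA-binding proteins such as Dazl and Ddx4 govern the fate of germ cell RNAs, the piRNA pathway, to which Mael belongs, silences transposons, and Stra8, itself induced by retinoic acid, opens the way to meiosis, in which Sycp1 and Sycp3 build the synaptonemal complex. In somatic cells many of these genes carry DNA methylation at a CpG-rich promoter or are held silent by a Polycomb complex that contains Mga, Max, E2f6 and L3mbtl2. ESC transcribe many of them at low to moderate levels.

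Levels are given as CPM, the counts of a gene for every 1000000 counts on genes in its library. The libraries held between 63617410 and 110569127 counts, and 3 counts, taken as the limit that a count of 0 allows, corresponded to 0.0271 to 0.0472 CPM. All 10 genes passed the expression limit, an average log2 CPM above 0 over the 4 libraries, as did 15492 genes in all. Of the 10, Dppa3, Dazl, Mael and Sycp3 were under it in both RA-DIFF libraries and passed through ESC. A gene was called different where its log2 ratio, on TMM-scaled log2 CPM with a prior count of 2, was past 0.75 in either direction. Marker levels accorded with the stage given by the labels, as the summed level of 10 pluripotency genes was 4383 and 4364 CPM in wild-type and Htt-null ESC and 273.6 and 233.0 CPM in the RA-DIFF libraries labelled wild type and Htt-null, while 7 neural progenitor genes summed to 47.2 and 61.1 CPM in ESC and to 2614 and 2578 CPM in RA-DIFF cells.

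Htt itself did not follow the genotype labels in RA-DIFF cells. It was at 163.6 CPM in wild-type and 114.1 CPM in Htt-null ESC, but at 74.3 CPM in the wild type-labelled RA-DIFF library and 96.3 CPM in the Htt-null-labelled RA-DIFF library. These counts span the whole gene and do not separate the alleles or the exons targeted. The expression levels that the study tabulated for the RA-DIFF conditions, when set against the deposited columns, nearly equalled the column of the opposite genotype label, and those for ESC the column of the same label. For the tabulated wild-type and Htt-null RA-DIFF levels, the standard deviation of the log2 difference was 0.00564 and 0.00569 against the opposite label. Against the same label it was 0.757 and 0.723. Directions between the RA-DIFF libraries given here as labelled are thus opposite to those of the study's tabulated levels. The 2 RA-DIFF libraries are therefore called by their labels throughout, and every direction between them would be the opposite if the labels were exchanged.

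The upstream sequences of 4 genes are shown first, because they hold a motif of the complex named above. RefSeq (GRCm38.p6) gave a transcription start with a promoter window for 7 of the 10 genes, namely Mael, Sycp1, Stra8, Prdm1, Sycp3, Ddx4 and Dazl, and the 250 bases upstream of each start were searched. Capitals mark CACGTG, the E-box bound by Max dimers, and GGCGGGA on either strand, a core of E2F sites. The E-box was found in 4 of the 7 windows, against 6.02% of all 32851 windows in the table, and the E2F core in 2, against 9.75%. Both motifs hold a CpG, and the windows of the 7 genes had a median of 17 CpG against 6 in all windows. The shares over all windows are therefore not from sequences of like CpG content. A match is a description of letters and no site was measured. The windows are printed in the direction of transcription.
Ddx4, chr13:112652311-112652560, minus strand: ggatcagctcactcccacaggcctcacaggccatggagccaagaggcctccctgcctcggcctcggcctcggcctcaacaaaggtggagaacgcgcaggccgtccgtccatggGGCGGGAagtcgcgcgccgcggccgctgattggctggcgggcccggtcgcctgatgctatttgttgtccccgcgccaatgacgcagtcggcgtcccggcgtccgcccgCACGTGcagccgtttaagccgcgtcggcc
Mael, chr1:166238745-166238994, minus strand: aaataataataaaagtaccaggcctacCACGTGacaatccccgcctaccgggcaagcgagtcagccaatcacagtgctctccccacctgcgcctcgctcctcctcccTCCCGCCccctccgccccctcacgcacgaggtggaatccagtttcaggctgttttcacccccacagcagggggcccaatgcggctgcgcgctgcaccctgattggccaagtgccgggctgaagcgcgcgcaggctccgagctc
Sycp1, chr3:102936101-102936350, minus strand: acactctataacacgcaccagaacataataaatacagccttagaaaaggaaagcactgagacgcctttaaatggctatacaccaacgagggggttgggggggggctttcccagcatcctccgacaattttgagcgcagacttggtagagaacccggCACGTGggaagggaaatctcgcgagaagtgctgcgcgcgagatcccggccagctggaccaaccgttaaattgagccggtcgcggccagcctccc
Sycp3, chr10:88459337-88459586, plus strand: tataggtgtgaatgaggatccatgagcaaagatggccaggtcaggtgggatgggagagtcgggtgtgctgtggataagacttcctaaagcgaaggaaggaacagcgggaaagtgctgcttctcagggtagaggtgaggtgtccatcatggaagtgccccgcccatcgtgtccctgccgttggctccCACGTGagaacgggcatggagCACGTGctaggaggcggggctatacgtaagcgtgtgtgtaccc
The window of Dazl, whose RNA was the most abundant of the 10 in wild-type ESC by CPM, held neither motif but 20 CpG dinucleotides.
Dazl, chr17:50293621-50293870, minus strand: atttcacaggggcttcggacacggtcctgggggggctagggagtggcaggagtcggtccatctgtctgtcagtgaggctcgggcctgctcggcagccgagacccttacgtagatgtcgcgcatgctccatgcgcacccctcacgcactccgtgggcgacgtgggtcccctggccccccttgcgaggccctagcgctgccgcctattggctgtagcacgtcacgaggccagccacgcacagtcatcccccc
The windows of Ddx4, Mael, Sycp1 and Sycp3 held 31, 18, 17 and 12 CpG, those of Prdm1 and Stra8 held 15 and 5, and the median of all windows was 6. Thus 6 of the 7 windows were above the median of all promoters, and Stra8 was the exception. The windows of Prdm1, chr10:44458749-44458998, and of Stra8, chr6:34920698-34920947, lay wholly within the gene spans given below. They are upstream of a RefSeq start but not of the start of the gene as counted.

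In Htt-null ESC, Dppa3 stood apart from the other 9 genes (plot of CPM in each library). Dppa3, also known as Stella, is a maternal factor that protects DNA from demethylation in the zygote and marks early germ cells. It lies at chr6:122626410-122630272 on the plus strand (GRCm38) and had 91 counts in wild-type and 551 in Htt-null ESC, or 1.03 CPM (interval 0.833 to 1.27) and 8.66 CPM (7.95 to 9.42). The log2 ratio was 2.98, a 7.90-fold higher level, and 13 of the 15492 genes above the expression limit had a larger ratio. Dppa3 was 1 of 10 genes called higher, where 5.14% of all tested genes were called higher, and 0 of the 10 were called lower, where 3.47% of all tested genes were. A Dppa3 pseudogene lies on the X chromosome, so that some reads may belong to it.

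**Figure D1:**
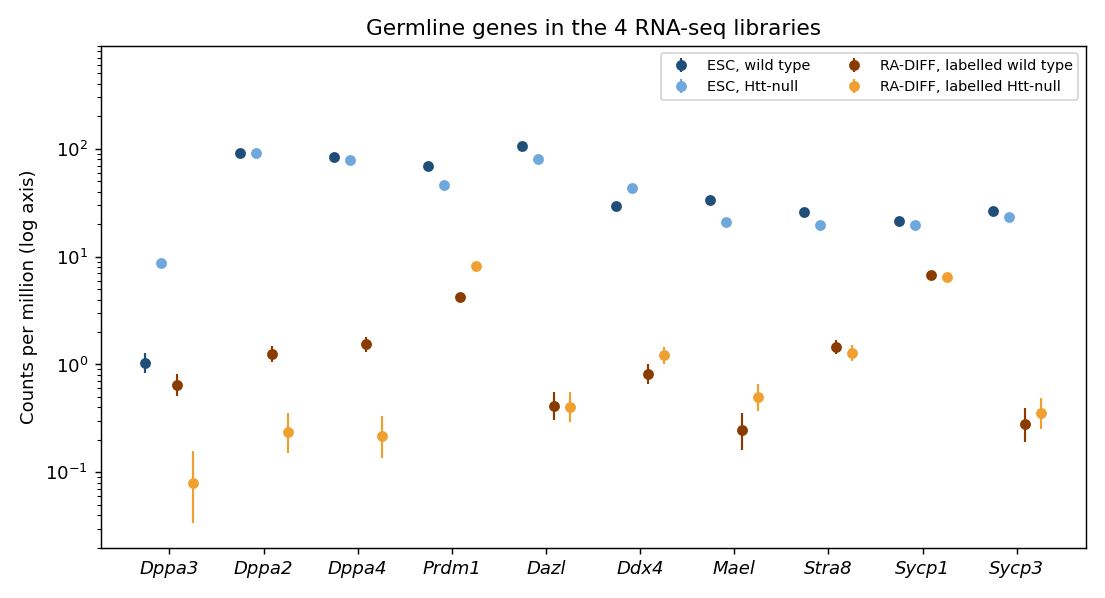
Level of each of the 10 germline genes in CPM on a log axis (y) for each gene (x), with 1 point per library and bars for the exact 95% binomial interval of counting error. Dppa3 is near 1.03 CPM in wild-type and 8.66 CPM in Htt-null ESC, whereas the other 9 genes lie between 19.6 and 106.2 CPM in both ESC libraries, and both RA-DIFF points of every gene lie below both of its ESC points.

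In RA-DIFF cells Dppa3 had 72 counts in the wild type-labelled library and 8 in the Htt-null-labelled library, or 0.651 CPM (0.510 to 0.820) and 0.0793 CPM (0.0342 to 0.156). The log2 ratio was -2.69 as labelled and would be 2.69 with the labels exchanged, the direction seen in ESC. Between the stages, Dppa3 had a log2 ratio of -0.69 in the libraries labelled wild type, just inside the limit of 0.75, and of -6.36 in those labelled Htt-null. With the RA-DIFF labels exchanged these ratios became -3.37 and -3.67. Dppa3 was thus lower in RA-DIFF cells than in ESC of the same label either way, and whether it passed the limit in wild-type cells depended on the labels.

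The genes around Dppa3 did not share its difference in ESC. Within 200 kb, Gdf3, Nanog, Apobec1, Mfap5, Slc2a3, Rimklb, Foxj2 and the pseudogene Gm8430 were above the expression limit, with log2 ratios in ESC between -0.39 and 0.40. Nanog, the pluripotency factor 77217 bp away, had a ratio of -0.01 on 62010 and 46148 counts. In RA-DIFF cells Nanog and Gdf3 were, like Dppa3, lower in the Htt-null-labelled library, with ratios of -2.19 and -1.94, while Mfap5 had 2 and 24 counts.

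The two-cell-like state is a rare state of ESC that transcribes genes of the early embryo, and its Zscan4 genes were, like Dppa3, higher in Htt-null ESC. Of 9 such genes found among the counts, 5 were above the expression limit, and 3 were called higher and 0 lower in ESC without Htt, against 5.14% and 3.47% of all tested genes. Zscan4f had 299 and 989 counts with a log2 ratio of 2.13, Zscan4c had 172 and 527 with 2.01, and Zscan4d had 495 and 944 with 1.34. The Zscan4 copies are near-identical, so that the division of reads among them is uncertain. The other tested genes, Usp17lc with 0.53 and Zfp352 with 0.63, stayed within the limit. The median of the 5 tested genes was 1.34 against -0.04 over all tested genes, and the 9 genes summed to 19.0 and 51.5 CPM. Of those under the limit, the transcription factor Dux had 22 and 54 counts and Tcstv1, the most abundant of them, 119 and 92. The part of cells in this state in the difference of Dppa3 was not tested, and in bulk RNA more cells of a kind and more RNA per cell cannot be told apart.

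Dppa2 and Dppa4 encode partner proteins with a SAP domain that bind chromatin together in pluripotent cells. They lie side by side on chromosome 16, at chr16:48310477-48319723 and chr16:48283735-48294292, 16185 bp apart on the plus strand. Dppa2 was at 90.5 CPM in wild-type and 91.7 CPM in Htt-null ESC, with a log2 ratio of -0.04 (-0.09 to 0.01). Dppa4 was at 83.7 and 78.8 CPM, with a ratio of -0.14 (-0.20 to -0.09). Per kilobase of exon these were the highest levels among the 10 genes in both ESC libraries, at 50.4 and 47.4 CPM per kb for Dppa4 and 37.0 and 37.5 for Dppa2.

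In RA-DIFF cells both genes were low and differed between the libraries. Dppa2 was at 1.25 CPM (1.05 to 1.47) in the wild type-labelled library and 0.238 CPM (0.152 to 0.354) in the one labelled Htt-null. Dppa4 was at 1.54 CPM (1.32 to 1.79) and 0.218 CPM (0.137 to 0.330). The log2 ratios were -2.24 for Dppa2 and -2.65 for Dppa4 as labelled, and 2.24 and 2.65 with the labels exchanged. With Dppa3 they were the 3 of 10 genes called lower in the Htt-null-labelled library, where 8.99% of all tested genes were. Of the other genes above the expression limit within 200 kb, Morc1, 111514 bp from Dppa2, had a ratio of -2.24 as labelled on 170 and 30 counts. The pseudogene Gm7204 had a ratio of 0.18.

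The difference of Dppa2, Dppa3 and Dppa4 in RA-DIFF cells ran beside that of the pluripotency genes. Of 10 pluripotency genes tested, in the Htt-null-labelled library 7 were called lower, against 8.99% of all tested genes, and 1 higher, against 11.7%, which was Tbx3 with 2.04. The median log2 ratio was -1.76 against -0.01 over all tested genes. Pou5f1 went from 11.97 to 1.22 CPM with a ratio of -3.22, Zfp42 from 9.70 to 0.783 CPM with -3.54, Esrrb from 7.46 to 1.12 CPM with -2.66 and Fgf4 from 1.10 to 0.0594 CPM with -3.74. Sox2, which neural progenitors also express, was at 216.0 and 207.2 CPM with a ratio of -0.01. In ESC 0 of the 10 were called in either direction, where 5.14% of all tested genes were higher and 3.47% lower. Whether cells that remained pluripotent account for the levels of Dppa2, Dppa3 and Dppa4 in RA-DIFF cells was not tested.

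Prdm1, also called Blimp1, is the transcriptional repressor that founds the germ cell lineage and that B cells and other somatic lineages use too. It spans chr10:44437177-44528501 on the minus strand. It was at 69.1 CPM (67.4 to 70.8) in wild-type and 46.4 CPM (44.8 to 48.1) in Htt-null ESC, and at 4.19 CPM (3.81 to 4.59) and 8.18 CPM (7.64 to 8.76) in the RA-DIFF libraries labelled wild type and Htt-null. The log2 ratio was -0.63 in ESC, short of the limit, and 1.02 in RA-DIFF cells as labelled, or -1.02 with the labels exchanged. Between the stages its ratio was -4.08 in the libraries labelled wild type and -2.43 in those labelled Htt-null, but -3.06 and -3.45 with the RA-DIFF labels exchanged, so that which of the lines differed more rests on the labels.

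The 3 genes for RNA-binding proteins were abundant in ESC and scarce in RA-DIFF cells. Dazl, at chr17:50279394-50293599, promotes translation in germ cells and was at 106.2 CPM (104.0 to 108.4) in wild-type and 79.7 CPM (77.6 to 82.0) in Htt-null ESC. In RA-DIFF cells it was at 0.416 CPM (0.305 to 0.555) and 0.406 CPM (0.292 to 0.551) in the libraries labelled wild type and Htt-null, on 46 and 41 counts. Between the stages its log2 ratio was -7.96 in the libraries labelled wild type, a 249-fold lower level, and -7.47 in those labelled Htt-null, or -7.94 and -7.49 with the RA-DIFF labels exchanged. Its ratio between genotypes was -0.47 in ESC and 0.02 (-0.62 to 0.66) in RA-DIFF cells, so that no difference was detectable in RA-DIFF cells at this depth.

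Ddx4, the RNA helicase Vasa, at chr13:112598333-112652310, was at 43.2 CPM (41.6 to 44.9) in Htt-null and 29.7 CPM (28.6 to 30.9) in wild-type ESC. Its log2 ratio of 0.48 stayed within the limit and was, with that of Dppa3, the only one above 0 among the 10 genes on the TMM scale. By library size alone that of Dppa2 was above 0 too, at 0.02. In RA-DIFF cells Ddx4 was at 0.823 CPM (0.663 to 1.01) and 1.22 CPM (1.01 to 1.45) in the libraries labelled wild type and Htt-null, with a ratio of 0.61. Between the stages its ratio was -5.18 and -5.05 in the libraries labelled wild type and Htt-null, or -4.57 and -5.66 with the RA-DIFF labels exchanged.

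Mael, at chr1:166201201-166238747, acts in transposon silencing. It was at 33.5 CPM (32.3 to 34.7) in wild-type and 21.1 CPM (20.0 to 22.3) in Htt-null ESC, with a log2 ratio of -0.72, the lowest of the 10 genes in ESC and the nearest to the limit from inside. In RA-DIFF cells it had 27 and 50 counts in the libraries labelled wild type and Htt-null, or 0.244 CPM (0.161 to 0.355) and 0.495 CPM (0.368 to 0.653). The ratio there was 1.01 (0.37 to 1.81) as labelled, with an interval that reaches inside the limit, and -1.01 with the labels exchanged. Mael and Prdm1 were the 2 of 10 genes called higher in the Htt-null-labelled library, where 11.7% of all tested genes were called higher. With the labels exchanged both were lower in Htt-null cells at both stages, past the limit in RA-DIFF cells alone.

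**Figure D2:**
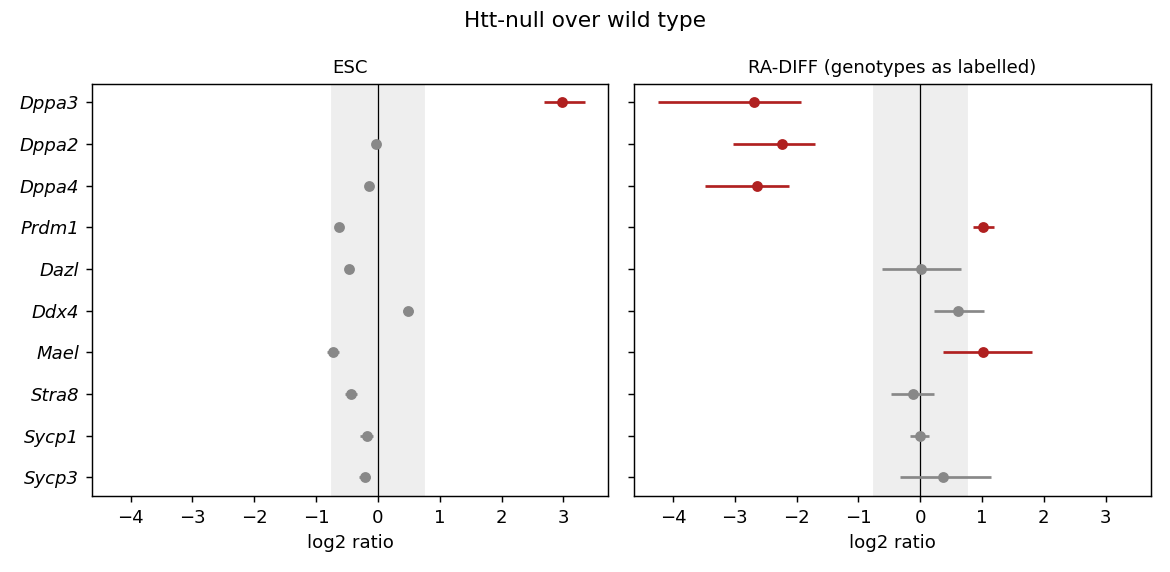
Htt-null over wild-type log2 ratio (x) for each of the 10 genes (y) in ESC and in RA-DIFF cells by their labels, with exact 95% intervals for counting error, red where the gene is called and the grey band marking ratios within 0.75. Dppa3 is at 2.98 in ESC and at -2.69 in RA-DIFF cells, where Dppa2 and Dppa4 lie beside it at -2.24 and -2.65, and all signs in the RA-DIFF panel turn if the labels are exchanged.

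For Stra8, Sycp1 and Sycp3 no difference between genotypes passed the limit at either stage. Stra8, at chr6:34920163-34939344, is the gatekeeper of meiotic entry and was at 25.8 CPM (24.8 to 26.9) in wild-type and 19.8 CPM (18.7 to 20.9) in Htt-null ESC, with a log2 ratio of -0.44. In RA-DIFF cells it was at 1.46 CPM (1.24 to 1.70) and 1.29 CPM (1.08 to 1.53) in the libraries labelled wild type and Htt-null, with a ratio of -0.12 (-0.47 to 0.22). Although retinoic acid induces Stra8 in germ cells, its level here was lower in the retinoic acid-treated cells than in ESC, with ratios of -4.17 and -3.85.

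Sycp1, the transverse filament of the synaptonemal complex, at chr3:102818499-102936100, differed less between the stages than Stra8 and Sycp3. It was at 21.3 CPM (20.3 to 22.3) and 19.6 CPM (18.5 to 20.7) in wild-type and Htt-null ESC, and at 6.73 CPM (6.25 to 7.23) and 6.43 CPM (5.95 to 6.94) in the RA-DIFF libraries labelled wild type and Htt-null. The log2 ratios between stages were -1.70 and -1.53, a 3.24-fold and a 2.89-fold lower level. Sycp3, an axial element of the complex, at chr10:88459569-88473236, was at 26.3 CPM (25.2 to 27.4) and 23.5 CPM (22.3 to 24.7) in ESC and at 0.280 CPM (0.191 to 0.398) and 0.357 CPM (0.250 to 0.494) in RA-DIFF cells, with ratios between stages of -6.48 and -5.89. Sycp3 overlaps Chpt1 on the opposite strand, and Chpt1 was not lower in RA-DIFF cells, with ratios of 0.29 and 1.15.

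Between the stages the 10 genes went one way. In the libraries labelled wild type, 9 of 10 were called lower in RA-DIFF cells, where 26.1% of all tested genes were, and 0 were called higher, where 33.9% of all tested genes were. In the libraries labelled Htt-null 10 of 10 were called lower, with 24.8% of all tested genes lower and 34.3% higher. The median log2 ratio of the 10 genes was -5.48 and -5.58, against 0.12 and 0.17 over all tested genes. Dppa3, Dazl, Mael and Sycp3 passed the expression limit through ESC alone, which is 40.0% of the 10 against 6.54% of all tested genes. Such genes had to be higher in an ESC library than in RA-DIFF cells, so these counts and medians are a description only. With the RA-DIFF labels exchanged, 10 of 10 were called lower in both, where 3906 and 3947 of the 15492 tested genes were. The 2 comparisons share no library, but each shares both of its libraries with the comparisons of genotypes above.

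**Figure D3:**
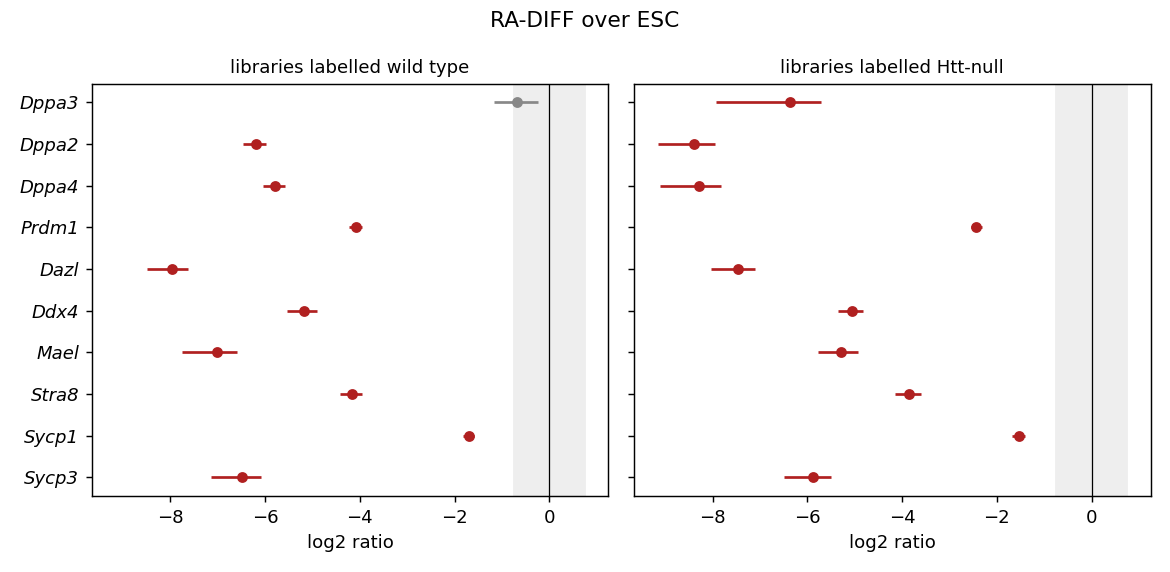
Log2 ratio of RA-DIFF over ESC (x) for each of the 10 genes (y) in the libraries labelled wild type and in those labelled Htt-null, with exact 95% intervals for counting error, red where the gene is called and the grey band marking ratios within 0.75. Every gene lies left of 0 in both panels, Sycp1 nearest to it among the called genes at -1.70 and -1.53, and Dppa3 at -0.69 in the left panel alone stays within the band.

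The order of the genes by level per kilobase of exon changed with the stage. The exon lengths are those of GENCODE vM21, in which 6 of the 10 genes have the same start and end as in the count table. The intervals take these lengths as exact. In wild-type ESC it ran from Dppa4 and Dppa2 through Dazl at 27.8 CPM per kb, Sycp3 at 20.8, Mael at 19.3, Stra8 at 14.3, Prdm1 at 12.4, Ddx4 at 9.86 and Sycp1 at 5.99 to Dppa3 at 1.16, and only the intervals of Sycp3 and Mael overlapped between neighbours. In Htt-null ESC Dppa3, at 9.71 CPM per kb, was above Prdm1 at 8.32 and Sycp1 at 5.50 and its interval overlapped that of Stra8. In both RA-DIFF libraries Sycp1 came first, at 1.89 and 1.81 CPM per kb in the libraries labelled wild type and Htt-null, above the interval of the next gene. Dppa4, Stra8, Prdm1 and Dppa3, in this order from 0.925 to 0.730 CPM per kb, followed in the wild type-labelled library, each overlapping the next, while in the one labelled Htt-null Prdm1 was second at 1.47 and Dppa3 was last at 0.0889, overlapping its neighbor Dppa2 at 0.0972.

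Profiles across the 4 libraries were compared by the distance between log2 CPM values centred on each gene's mean, over the 15491 other genes above the limit. The nearest profiles to Dppa2 were those of Platr11, Nanog and AU018091 at distances of 0.09 to 0.14, and those to Dppa4 were Gtsf1l, Zfp936 and Zscan10 at 0.08 to 0.26. Dppa2 and Dppa4 were 0.39 apart, and Dppa4 was 11th in the order of genes nearest to Dppa2. Mael and Sycp3 were 0.57 apart, with Sycp3 at place 8 from Mael after Sh3tc1, Psd4 and Oas2 as the first 3. Dppa3 had no near profile, since Cngb1, 1500026H17Rik and Slc24a1 came first at 1.31 to 1.57.

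The nearest profiles to the remaining genes were those of Csrnp1, Gm28321 and Prune2 for Prdm1, at 0.20 to 0.22, and of Plet1, Gtsf1 and Laptm5 for Dazl, at 0.32 to 0.35. For Ddx4 they were Des, Gstp2 and Usp17lc at 0.13 to 0.19, for Stra8 Gm20541, 1700001L05Rik and Crb3 at 0.10 to 0.13, for Sycp1 Zfp655, Gm11261 and Nat10 at 0.05 to 0.07, and for Sycp3 Hspb1, RP23-372C7.8 and Klk1 at 0.19 to 0.27. With 4 libraries such likeness is a description of few values.

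Of 72 other germline genes in 4 lists, 60 were above the expression limit, and 24 of these, or 40.0% against 6.54% of all tested genes, were under it in both RA-DIFF libraries and so passed through their level in ESC. Such genes had to be higher in an ESC library than in RA-DIFF cells, and their ratios between the RA-DIFF libraries rest on few counts, so the counts between stages and between the RA-DIFF libraries are a description only. In Htt-null ESC 4 were higher and 4 lower past the limit, which is 6.67% each way against 5.14% and 3.47% of all tested genes, and the median ratio was 0.01. In RA-DIFF cells the Htt-null-labelled library had 17 higher and 10 lower, or the reverse with the labels exchanged, where 11.7% and 8.99% of all tested genes were called. Among the called are Asz1 with 1 and 8 counts and Hormad1 with 9 and 18. Between the stages 48 were called lower and 6 higher in the libraries labelled wild type, where 26.1% and 33.9% of all tested genes were. In those labelled Htt-null 46 were lower and 3 higher, where 24.8% and 34.3% were. The medians were -4.17 and -3.58.

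Among 8 tested genes of germ cell specification, Nanos3, an RNA-binding protein that keeps germ cells alive, was the 1 called higher in Htt-null ESC, on 37 and 100 counts. In ESC 5.14% of all tested genes were called higher, and 0 of the 8 were called lower, against 3.47%. Ifitm1, a surface marker of early germ cells, was at 235.1 and 177.4 CPM and the receptor Kit at 109.4 and 101.2 CPM in ESC, with ratios of -0.46 and -0.17 that stayed within the limit. In RA-DIFF cells 4 were lower and 2 higher in the Htt-null-labelled library, against 8.99% and 11.7% of all tested genes. Prdm14, the regulator that acts beside Prdm1, had 71 and 2 counts there, against 4027 and 2838 in ESC. Tfap2c, a further partner of Prdm1, had a ratio of -1.05, Elavl2 one of -1.13 and Nanos3 one of -1.28, whereas Ifitm3 was higher with 2.63 at 6.81 and 40.8 CPM. The direction of Prdm1 in RA-DIFF cells was thus opposite to those of Prdm14 and Tfap2c.

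Among 17 tested genes of the piRNA pathway, in which Mael and Ddx4 act, Asz1 was lower in Htt-null ESC with a log2 ratio of -1.66 on 366 and 86 counts, and Tdrd5 and Tdrkh were higher with 0.90 and 0.78. That is 1 lower and 2 higher, where 3.47% and 5.14% of all tested genes were. Between the stages 14 were lower and 3 higher in the libraries of either label, against 26.1% and 33.9% of all tested genes by the wild type labels and 24.8% and 34.3% by the Htt-null labels. The medians were -4.36 and -4.12. The Piwi protein Piwil2 was at 38.1 and 49.9 CPM in ESC and at 0.208 and 0.198 CPM in RA-DIFF cells, and Gtsf1 had 618 and 297 counts in ESC and 0 in both RA-DIFF libraries. In RA-DIFF cells 6 were higher and 2 lower in the Htt-null-labelled library, against 11.7% and 8.99% of all tested genes, among them the helicase Mov10l1 with 2.76 on 15 and 102 counts and Tdrd12 with -2.69 on 182 and 23 counts. The median there was 0.00, or 0.17 without Gtsf1, which had no count in either library.

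Among 21 tested meiotic chromosome genes, the cohesin subunit Rec8 was higher in Htt-null ESC, at 6.97 and 17.2 CPM with a log2 ratio of 1.24, and the mismatch repair homologue Msh5 lower with -0.76. That is 1 higher and 1 lower, where 5.14% and 3.47% of all tested genes were. Between the stages 15 were lower in the libraries of either label, against 26.1% and 24.8% of all tested genes. The histone methyltransferase Prdm9, with 1.45, was the 1 higher in the libraries labelled wild type, where 33.9% of all tested genes were. In those labelled Htt-null 0 were higher, against 34.3%. The HORMA domain gene Hormad1 was at 38.5 and 37.8 CPM in ESC and 0.0814 and 0.178 CPM in RA-DIFF cells, and the cohesin subunit Smc1b at 121.7 and 88.3 CPM and 1.54 and 1.70 CPM. In RA-DIFF cells 5 were higher and 3 lower in the Htt-null-labelled library, against 11.7% and 8.99% of all tested genes, with 4930447C04Rik, now Six6os1 and a part of the synaptonemal complex, at 2.46 on 69 and 344 counts.

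Among 14 other germline-restricted genes, Slc25a31 and Rpl10l were lower in Htt-null ESC, with ratios of -1.10 and -0.94, and 0 were higher. Of all tested genes 3.47% were lower and 5.14% higher there. Between the stages 13 were lower in the libraries labelled wild type and 12 in those labelled Htt-null, against 26.1% and 24.8% of all tested genes. Tex13, with 0.995, was the 1 higher in the former, where 33.9% of all tested genes were. In the latter 0 were higher, against 34.3%. Tex14, a kinase homologue of germ cell bridges, was at 128.0 and 142.9 CPM in ESC and 0.850 and 1.06 CPM in RA-DIFF cells. In RA-DIFF cells 4 were higher and 1 lower in the Htt-null-labelled library, against 11.7% and 8.99% of all tested genes. The lower was Rpl10l with -2.98, and among the higher were Tuba3a with 2.73, Slc25a31 with 2.58 and Tex11 with 1.27.

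Genes of late gametes were at or near 0 in ESC, since their 13 genes found in the table summed to 2.99 CPM in wild-type and 4.97 CPM in Htt-null ESC. The protamine Prm1 had 5 counts in each ESC library, the transition protein Tnp1 had 1 and 0, and Nobox, an oocyte factor, 9 and 10. Only Zp3, of the egg coat, passed the expression limit, at 1.47 and 2.85 CPM in ESC with a log2 ratio of 0.89. The growth factor Gdf9, under the limit, had 26 and 40 counts.

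**Figure D4:**
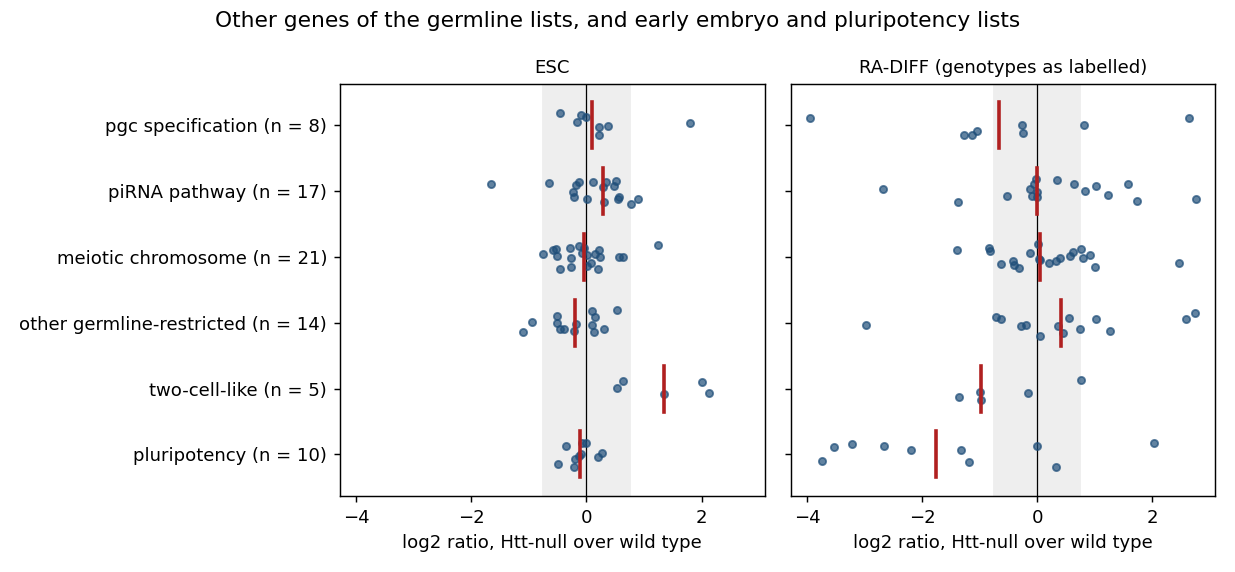
Htt-null over wild-type log2 ratio (x) for every gene above the expression limit in 4 lists of other germline genes, the two-cell-like list and the pluripotency list (y), in ESC and in RA-DIFF cells by their labels, with a red bar at each list's median and the grey band marking ratios within 0.75. In ESC the germline medians lie between -0.19 and 0.28 and that of the two-cell-like list at 1.34, and in RA-DIFF cells that of the pluripotency list lies at -1.76.

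The 23 genes for proteins that repress germline genes were all above the expression limit. In ESC 0 were called in either direction, where 5.14% of all tested genes were higher and 3.47% lower. The 1 called in RA-DIFF cells was Dnmt3l, lower in the Htt-null-labelled library with 2.51 and 0.377 CPM. Of all tested genes 8.99% were lower and 11.7% higher in that library. Mga was at 895.9 and 751.9 CPM and the corepressor Trim28 at 1817 and 1846 CPM in ESC. Between the stages 9 were lower and 4 higher in the libraries labelled wild type, where 26.1% and 33.9% of all tested genes were, and 8 and 4 in those labelled Htt-null, where 24.8% and 34.3% were. Mga was at 133.8 and 138.5 CPM in RA-DIFF cells with ratios of -2.78 and -2.37, and Dnmt3b, a de novo DNA methyltransferase, had -2.98 and -2.96, while the Polycomb subunit Ring1 had 2.36 and 1.81.

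Markers of other cells also differed between the RA-DIFF libraries. Of 8 fibroblast and mesenchyme genes the Htt-null-labelled library had 7 higher and 0 lower, against 11.7% and 8.99% of all tested genes, and they summed to 590.7 CPM in the wild type-labelled library and 2084 CPM in the other, with Acta2 at 41.5 and 619.8 CPM. In ESC, for which the labels name feeder fibroblasts or gelatin and also 4 passages without feeders, the same genes summed to 42.2 CPM in wild-type and 31.9 CPM in Htt-null cells, and 5 of 8 were called lower and 1 higher there, the last being Lum on 0 and 1 counts, against 3.47% and 5.14% of all tested genes. Of 5 tested visceral endoderm genes 2 were higher in the Htt-null-labelled library and 0 lower, Foxa2 with 2.69 and Dab2 with 1.79, and the list summed to 18.8 and 58.3 CPM. The part of these cells in the higher levels of Prdm1 and Mael in that library was not tested.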

How the data were processed

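RNA-seq was made from poly-A RNA with a strand-specific dUTP method and 50 bp paired reads in 4 libraries, 1 per condition. The authors aligned reads to GRCm38.p4 with TopHat2 2.0.14, counted them on genes with HTSeq 0.6.1 and deposited raw counts per gene without normalization. No strand option is named, and unnamed options were defaults by the account of the methods. The deposited counts were scaled with TMM factors in edgeR 4.0.16 (R 4.3.3) and turned into log2 CPM with a prior count of 2. Intervals are exact (Clopper-Pearson) from scipy 1.17.1, and levels per kb use exon lengths of GENCODE vM21. With 1 library per condition there are no replicates to test with. A gene was called where the log2 ratio was past 0.75 and the average log2 CPM above 0. The code that computes ratios was checked on simulated counts with known folds. The 10 genes and the lists were chosen with earlier results of these data known. Named beside them were Htt, up to 4 called genes per list and comparison with the largest ratios (otherwise the 2 most abundant) and the 3 nearest profiles. Neighbours within 200 kb were named for Dppa3, Dppa2 and Dppa4 alone, besides Chpt1, which overlaps Sycp3. Dux, Tcstv1, Prdm9, Tex13, Nobox, Prm1 and Tnp1 were named after their values were seen. Prm2, Oosp1 and Dub1 matched no gene in the table. The 4 small RNA libraries were not used. Alternatives were other scalings, expression and fold limits, a smaller prior count, an edgeR exact test at assumed dispersions of 0.1 and 0.01, whose outcome rests on the number assumed, and exchanged RA-DIFF labels.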

Additional observations from a re-analysis of the deposited data

Results flagged for a closer look

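The ratio of Htt-null over wild type for Dppa3 was past the limit in opposite directions at the 2 stages. It was 2.98 in ESC, on 91 and 551 counts, and -2.69 in RA-DIFF cells by their labels, on 72 and 8 counts. With 1 library per condition the difference between the stages was not tested. With the RA-DIFF labels exchanged, the second ratio was 2.69 and the directions were the same. No other gene of the 10 was past the limit in both comparisons.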

How the results depend on the processing

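With 1 library per condition, no replicate could be left out, so variation between cultures was not measured. The RA-DIFF labels are a further limit. No paired analysis was possible because the groups compared share only 1 replicate number, with 1 library each. The counts of called genes among the 10 were within 1.5 times the reported ones under every alternative, except that for the RA-DIFF pair 0 in place of 2 were higher as labelled when an edgeR exact test at an assumed dispersion of 0.1 was required too, an assumption under which a log2 ratio near 1 cannot pass in 1 library against 1. Exchanging the RA-DIFF labels reversed Dppa2 (2.24), Dppa3 (2.69), Dppa4 (2.65), Mael (-1.01) and Prdm1 (-1.02), turned the 17 higher and 10 lower germline list genes in RA-DIFF cells into 10 and 17, and gave 5 in place of 3 higher between stages in Htt-null cells. Scaling by library size alone or by RLE factors, or a prior count of 0.5, changed no call among the 10 genes.

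Other counts moved by over 1.5 times. Without an expression limit, the germline lists gave 10 higher and 7 lower in ESC in place of 4 and 4, 6 higher between stages in the libraries labelled Htt-null and 12 in those labelled wild type. All genes then gave 5217 higher and 2943 lower in ESC (reported 797 and 537), 4204 and 4384 in RA-DIFF cells (1817 and 1393), 10162 and 8674 between stages in libraries labelled wild type, and 9567 and 9945 in those labelled Htt-null. With the exact test at dispersion 0.1 the lists gave 1 and 1 in ESC and 6 and 3 in RA-DIFF cells, and all genes gave 152 and 100 in ESC, 815 and 526 in RA-DIFF cells, and 2673 and 2466 lower between stages in libraries labelled wild type and Htt-null. A fold limit of 1 gave 2 and 2 list genes and 458 and 286 of all genes in ESC, and 897 of all genes lower in RA-DIFF cells. An average log2 CPM above 1 gave 6 list genes lower in RA-DIFF cells and 530 of all genes higher in ESC. The alternatives that moved these counts test more genes or fewer, or ask more of each.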
